A study of Mus musculus with 27 samples.

Results

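The cells described here are the NMP/Caudal Epiblast cells of mouse gastruloids, hereafter NMP cells: all cells that the authors' Leiden clustering put in cluster 3. They are 529 of the 4637 cells listed, or 11.4%, and they carry a single name in the deposited annotation, "Tailbud", which was matched to the NMP/Caudal Epiblast type by its equal number of cells. Neuromesodermal progenitors (NMPs) sit in the caudal epiblast and later in the tail bud of the embryo, where they co-express the mesodermal factor T (Brachyury) and the neural factor Sox2, along with Nkx1-2 and the caudal factor Cdx2. Wnt and FGF signalling maintain them while the body axis elongates. They give rise to the spinal cord on the neural side and, through the presomitic mesoderm, to the somites on the mesodermal side. Because the tables hold values for each cell and none for single genes, these 4 markers could not be checked, and the name rests on the authors' annotation. The deposited germ layer of these cells is ectoderm.

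Gastruloids are aggregates of mouse embryonic stem cells (mESCs) that form an elongated structure with cell types of all germ layers after a pulse of the Wnt activator chiron. The 15 gastruloids, collected 120 h after aggregation, were grown from B6 mESCs, a 129S1/SvImJ and C57BL/6 hybrid line, in 3 groups of 5 that differed in the pre-culture of the mESCs. Condition 1 was kept in ESLIF, a medium with serum and leukaemia inhibitory factor. For condition 5, the mESCs spent 48 h in 2i medium, which holds inhibitors of GSK3 and MEK, before a return to ESLIF for 48 h, and for condition 6 both steps lasted 24 h. Each gastruloid was dissociated and sorted as single cells into its own plate for CEL-seq2, so a gastruloid and its plate cannot be told apart. Plate numbers ran in blocks by condition, with condition 6 at both ends, so an effect of plate order could not be separated from the condition. Whether the numbers give the order of processing is not stated. Since separate mESC cultures for the 5 of a condition are not stated, p-values measure the spread between these gastruloids only. Gastruloids are called by condition and letter as in the deposited table (1A to 6E). They held 261 to 348 listed cells each, with a median of 7110 to 12136 counts per cell. No cell name was repeated and no pair of cells shared the same counts, genes and mitochondrial value. The comparison of conditions asks whether the pre-culture affects the progenitor pool, and the comparison within gastruloids places NMP cells beside the other 10 annotated types. The type names used here follow the paper. For 8 of the 11 types, "Tailbud" among them, the deposited annotation is written differently. Each type holds the number of cells that the paper gives for it.

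NMP cells were present in all 15 gastruloids, at shares between 0.662% and 25.5% of the cells. In condition 1, they made up 11.97% of the cells of 1A (37 cells), 16.1% of 1B (49 cells), 25.5% of 1C (76 cells), 0.662% of 1D (2 cells) and 21.9% of 1E (69 cells). In condition 5, the shares were 10.8% in 5A (34 cells), 8.33% in 5B (29 cells), 15.7% in 5C (41 cells), 9.40% in 5D (28 cells) and 4.21% in 5E (13 cells). In condition 6, they were 7.55% in 6A (24 cells), 17.6% in 6B (52 cells), 6.54% in 6C (21 cells), 9.18% in 6D (29 cells) and 7.69% in 6E (25 cells). The highest share and the lowest both belonged to condition 1, and the 3 conditions overlapped. The 95% Wilson intervals, which cover counting error only, ran from 20.9% to 30.7% for 1C and from 0.182% to 2.38% for 1D.

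**Figure D1:**
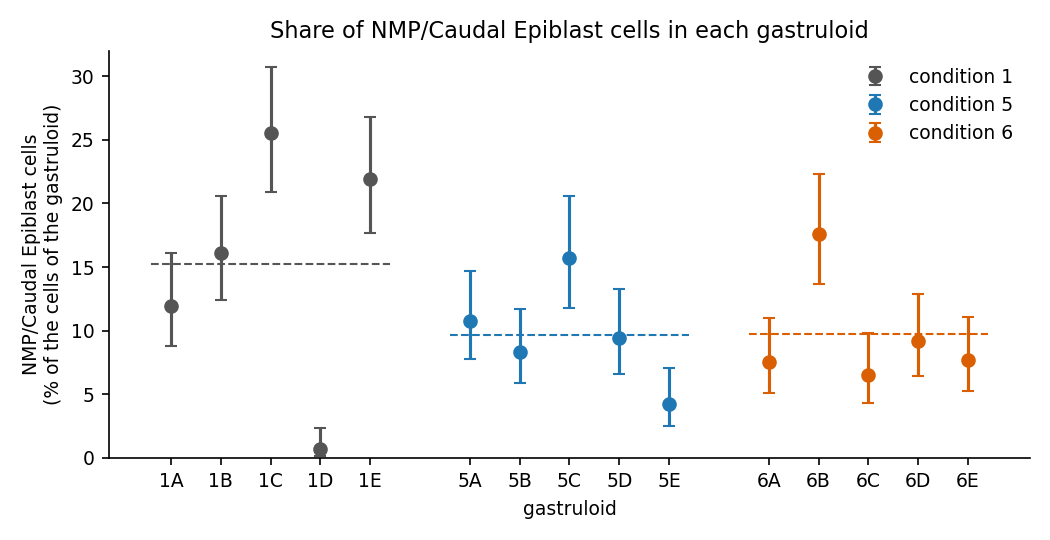
NMP cells as a percent of the cells of each gastruloid (y axis), with gastruloids grouped by condition on the x axis. Points are gastruloids, bars are 95% Wilson intervals (counting error only) and dashed lines are condition means. Condition 1 spans 0.662% to 25.5%, conditions 5 and 6 span 4.21% to 15.7% and 6.54% to 17.6%.

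The mean share was 15.2% ± 9.66 (SD, n = 5) in condition 1, 9.68% ± 4.16 (SD, n = 5) in condition 5 and 9.71% ± 4.49 (SD, n = 5) in condition 6. No pair of conditions was told apart. A two-sided exact Wilcoxon rank-sum test gave p = 0.222 for condition 1 against 5, p = 0.310 for 1 against 6 and p = 0.690 for 5 against 6. Without 1D, condition 1 averaged 18.9% ± 6.02 (SD, n = 4) and exceeded condition 5 by 9.18 percentage points (exact p = 0.0317, corrected 0.0952) and condition 6 by 9.16 points (exact p = 0.0635, corrected 0.190). Corrected values are multiplied by the 3 pairs of conditions, and neither passed. As a description, the SD between gastruloids was 4.70, 2.48 and 2.71 times the binomial SD in conditions 1, 5 and 6, and 2.70 times in condition 1 without 1D.

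The gastruloid with nearly no NMP cells, 1D, was also the gastruloid richest in Spinal Cord cells. It held 178 Spinal Cord cells, 58.9% of its cells, no Presomitic Mesoderm cells, and 2 NMP cells. Those 2 cells had 541 and 939 counts, at the low end of all NMP cells, whose median was 10122. With a minimum of 1000 counts per cell, 1D held 0 NMP cells of 295, which allows a share of up to 1.02%. Every value given below for the NMP cells of 1D rests on these 2 shallow cells.

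Set against the types they are known to give rise to, NMP cells stood in different proportions in condition 1 than in conditions 5 and 6. Of all cells of the NMP and Spinal Cord types, NMP cells were 59.7% in 1A, 69.0% in 1B, 60.3% in 1C, 1.11% in 1D and 63.3% in 1E. The same proportion was 91.9% in 5A, 100% in 5B, 91.1% in 5C, 90.3% in 5D and 100% in 5E. It was 96% in 6A, 96.3% in 6B, 84.0% in 6C, 82.9% in 6D and 80.6% in 6E. All 5 gastruloids of condition 1 lay below all of conditions 5 and 6. The mean was 50.7% ± 27.96 (SD, n = 5) in condition 1, 94.7% ± 4.90 (SD, n = 5) in condition 5 and 88.0% ± 7.57 (SD, n = 5) in condition 6. Condition 1 was lower than condition 5 and lower than condition 6, each with p = 0.00794 in the exact rank-sum test, the smallest p that 5 against 5 gastruloids allow, and 0.0238 after correction for 3 pairs. Conditions 5 and 6 were not told apart (exact p = 0.206).

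On the mesodermal side the proportion ran the other way. Of all cells of the NMP and Presomitic Mesoderm types, NMP cells were 78.7% in 1A, 63.6% in 1B, 91.6% in 1C, 100% in 1D and 65.1% in 1E. They were 37.4% in 5A, 37.2% in 5B, 48.2% in 5C, 32.6% in 5D and 28.9% in 5E. In condition 6 they were 40.7% in 6A, 61.2% in 6B, 28% in 6C, 33.3% in 6D and 29.1% in 6E. Every gastruloid of condition 1 lay above every gastruloid of conditions 5 and 6, although 6B came within a few points of 1B. The means were 79.8% ± 16.0, 36.8% ± 7.28 and 38.5% ± 13.6 (SD, n = 5 each) for conditions 1, 5 and 6. Both differences from condition 1 had an exact rank-sum p of 0.00794 and a corrected value of 0.0238, and conditions 5 and 6 had p = 1.

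**Figure D2:**
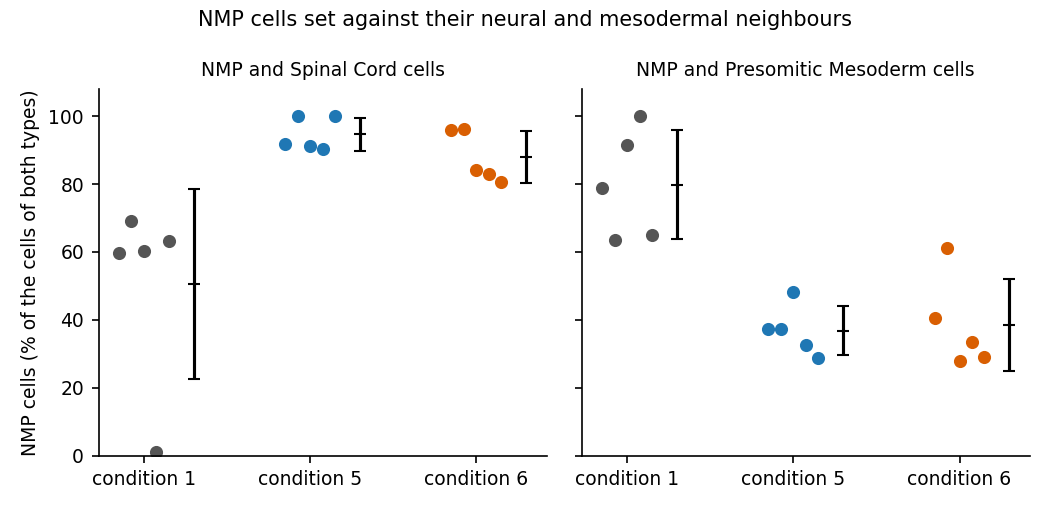
NMP cells as a percent of NMP and Spinal Cord cells (left) and of NMP and Presomitic Mesoderm cells (right), y axis, for the 3 conditions on the x axis. Points are gastruloids and black bars show the mean ± SD. In both panels the 5 gastruloids of condition 1 do not overlap those of conditions 5 and 6.

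These proportions move with the shares of the other type. Spinal Cord cells made up 20.7%, 0.698% and 1.20% of the cells on average in conditions 1, 5 and 6, and Presomitic Mesoderm cells 5.30%, 15.8% and 15.2%, while the NMP share itself was not told apart between conditions. Across all 42 planned tests between conditions, 6 passed the threshold after correction for 3 pairs, these 4 among them. After Benjamini-Hochberg adjustment over all 42, the lowest value, that of these 4, was 0.0833, so none stayed under 0.05.

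Across gastruloids, the NMP share was not shown to follow the share of either neighbour. With condition means subtracted and neither type in the denominator of the other, NMP and Spinal Cord shares had r = -0.521 (permutation p = 0.319, Benjamini-Hochberg 0.319 over 2 relations) and rho = -0.0518 (permutation p = 0.887) over the 15 gastruloids. The sign rested on 1D: without it r was 0.739 (permutation p = 0.0323), and without the 2 gastruloids farthest from the median, 1C and 1D, it was 0.578 (permutation p = 0.0990). Within conditions 5 and 6 alone, r was 0.319 (permutation p = 0.402). NMP and Presomitic Mesoderm shares had r = 0.481 (permutation p = 0.153, adjusted 0.307) and rho = 0.475 (permutation p = 0.140). Without 1C and 1D that r was 0.492 (permutation p = 0.139), and without 1C alone it was 0.658 (permutation p = 0.0425).

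On the deposited UMAP, NMP cells formed a compact group that touched Spinal Cord, Endoderm and Presomitic Mesoderm cells at separate edges. Of the 15 nearest cells of each NMP cell, 7935 in all, 96.96% were NMP cells, and 477 NMP cells (90.2%) had no neighbour of another type. The 241 neighbours of another type were 157 Spinal Cord cells, 42 Presomitic Mesoderm cells, 39 Endoderm cells and 3 cells of the Differentiation Front, the zone where presomitic mesoderm turns into somites. Spinal Cord cells were thus 65.1% of these neighbours, against 8.37% of all cells outside the NMP cluster. For Endoderm the pair of values was 16.2% and 3.26%, and for Presomitic Mesoderm 17.4% and 13.7%. Early Somites, Somites, Endothelium, Allantois, Neural Crest and PGC-like cells, the germ cell-like cells of gastruloids, supplied none. The UMAP was built from the same expression values as the clusters, so the neighbours of NMP cells describe the embedding, and no test was made of the NMP cells against other types.

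**Figure D3:**
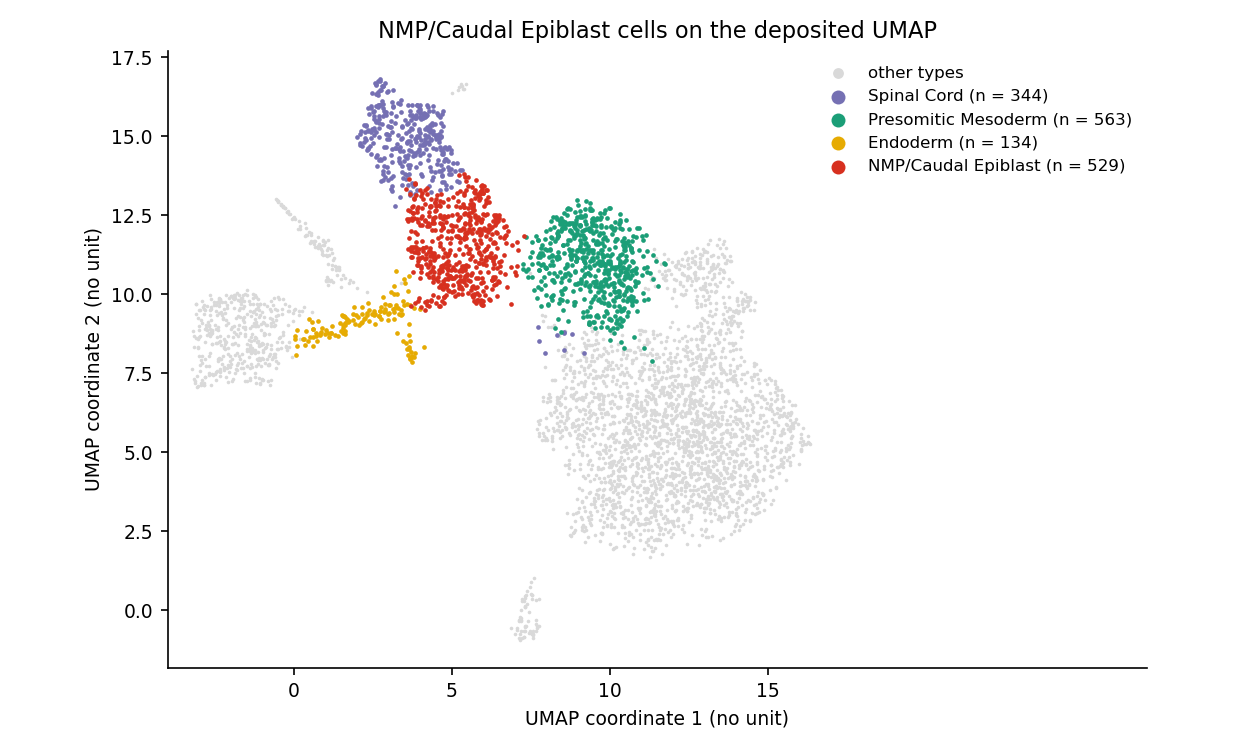
The 4637 gastruloid cells at their deposited UMAP coordinates (both axes without unit), with the 529 NMP cells in red, the 3 types that border them in colour and all other types in grey. The NMP cells meet Spinal Cord cells above, Presomitic Mesoderm cells to the right and Endoderm cells to the lower left.

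No NMP cell had both a neural and a mesodermal cell among its 15 neighbours. A neural neighbour was found for 31 NMP cells, a mesodermal neighbour for 9 and an Endoderm neighbour for 12. Of the 31 cells at the neural edge, 25 came from condition 1, 3 from condition 5 and 3 from condition 6. Of the 9 at the mesodermal edge, 2 came from condition 1, 1 from condition 5 and 6 from condition 6. Condition 1 supplied 44.0% of all NMP cells. It also held 315 of the 344 Spinal Cord cells, against 10 in condition 5 and 19 in condition 6. Of the 563 Presomitic Mesoderm cells, 82, 240 and 241 came from conditions 1, 5 and 6. The cells available as neighbours thus differed between conditions, here and in the neighbour shares below.

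For the neural and mesodermal neighbours together, the neural percent was 100 in 1A, 69.2 in 1B, 100 in 1C and 92.5 in 1E. It was 54.5 in 5B and 100 in 5C, and 0 in 6A, 81.8 in 6B, 30 in 6C, 0 in 6D and 0 in 6E. Gastruloids 1D, 5A, 5D and 5E had no such neighbour and gave no value. The means were 90.4% ± 14.6 (SD, n = 4) in condition 1, 77.3% ± 32.1 (SD, n = 2) in condition 5 and 22.4% ± 35.7 (SD, n = 5) in condition 6. Condition 1 against 6 had an exact rank-sum p of 0.0317, or 0.0952 corrected, which did not pass. With 30 or 50 neighbours in place of 15 the same comparison passed (exact p = 0.0159, corrected 0.0476).

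To place all NMP cells, each was also assigned the type of its nearest cell outside the cluster, a measure chosen after the neighbours had been counted. This nearest cell was a Spinal Cord cell for 200 NMP cells (37.8%), an Endoderm cell for 177 (33.5%) and a Presomitic Mesoderm cell for 152 (28.7%). The neural side held 48.6% of the NMP cells of 1A, 59.2% of 1B, 68.4% of 1C, 0% of 1D and 37.7% of 1E. It held 20.6% of 5A, 44.8% of 5B, 36.6% of 5C, 25% of 5D and 15.4% of 5E. In condition 6 it held 8.33% of 6A, 17.3% of 6B, 19.0% of 6C, 24.1% of 6D and 36.0% of 6E. Apart from 1D, every gastruloid of condition 1 lay above every gastruloid of condition 6, while condition 5 overlapped both. The means were 42.8% ± 26.5, 28.5% ± 12.03 and 20.97% ± 10.2 for conditions 1, 5 and 6 (SD, n = 5 each), and no pair passed (exact p = 0.222, 0.151 and 0.310 for 1 against 5, 1 against 6 and 5 against 6). Without 1D, condition 1 exceeded condition 6 by 32.5 percentage points (exact p = 0.0159, corrected 0.0476).

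**Figure D4:**
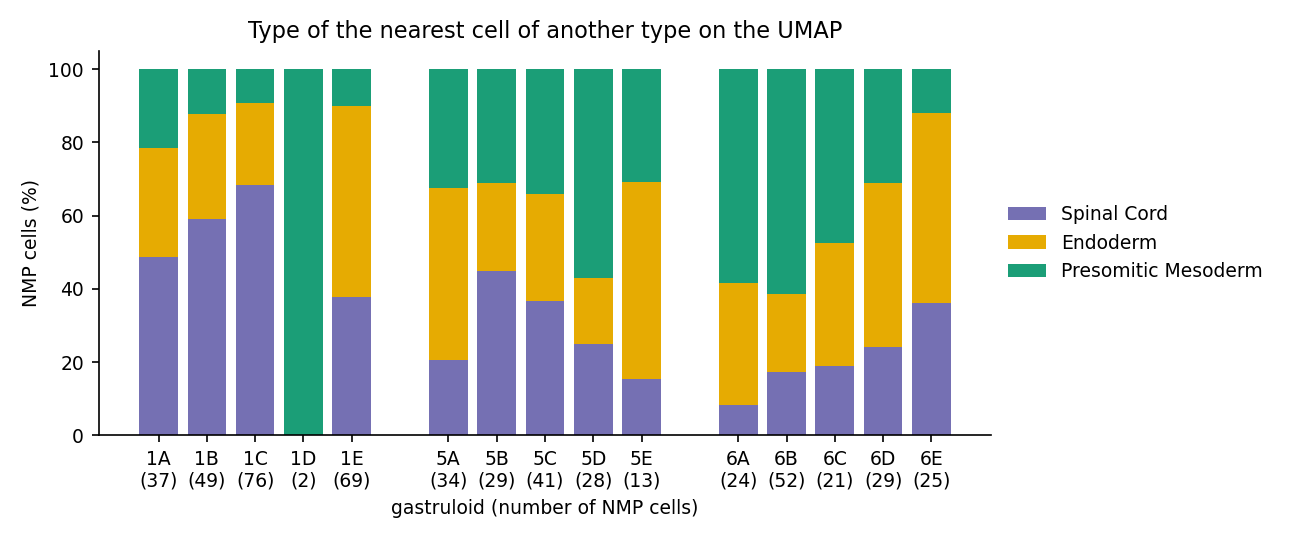
For each gastruloid (x axis, number of NMP cells in brackets), the percent of its NMP cells (y axis) whose nearest cell outside the NMP cluster was a Spinal Cord, Endoderm or Presomitic Mesoderm cell. The Spinal Cord part is 37.7% to 68.4% in condition 1 except in 1D, which has 2 NMP cells and none on the neural side, and 8.33% to 36.0% in condition 6.

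Seen from the other side of the border, Spinal Cord and Endoderm cells lay closer to the NMP group than Presomitic Mesoderm cells did. The median UMAP distance to the nearest NMP cell was 1.47 for Spinal Cord, 1.53 for Endoderm and 2.37 for Presomitic Mesoderm cells. The nearest cell of another type was an NMP cell for 231 of 344 Spinal Cord cells (67.2%), for 41 of 134 Endoderm cells (30.6%) and for 116 of 563 Presomitic Mesoderm cells (20.6%). The 178 Spinal Cord cells of 1D lay farther from the NMP cells than those of the rest of condition 1. Their median UMAP distance to the nearest NMP cell was 1.95, against 0.893 for the 137 Spinal Cord cells of 1A, 1B, 1C and 1E, and 1 of the 178 had an NMP cell among its 15 neighbours, against 30 of the 137. UMAP distances have no unit and are not to scale between distant groups.

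A further column of the deposited table, which carries no description, splits the cells into 15 classes and places 517 of the 529 NMP cells in a class of 579. That class also takes in 43 Spinal Cord cells, 9 Presomitic Mesoderm cells, 8 Endoderm cells and 2 Differentiation Front cells. The 43 Spinal Cord cells in it came from condition 1 for 36, with 13 from 1C, 11 from 1A, 8 from 1B, 3 from 1E and 1 from 1D. Those 36 cells were 11.4% of the 315 Spinal Cord cells of condition 1, against 4 of 10 in condition 5 and 3 of 19 in condition 6. Without 1D, which held 178 of the 315, the share in condition 1 was 35 of 137 (25.5%). The 12 NMP cells outside it were placed with mostly Presomitic Mesoderm cells for 8, with mostly Spinal Cord cells for 2 and with mostly Differentiation Front cells for 2.

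NMP cells of the same condition, those of the same gastruloid included, lay near each other more often than the mixture of NMP cells gives. Among NMP neighbours, 56.0% shared the condition of a condition 1 cell, where the mixture gives 43.9%. The pairs were 35.8% and 27.3% for condition 5 and 48.8% and 28.4% for condition 6. For single gastruloids the ratio of own neighbours to the mixture was highest in 6A (3.42) and 6B (3.37), near 1 in 5A (1.02) and 1B (1.03), and below 1 in 5C (0.974) and in 1D, whose 2 NMP cells gave 0. The condition percents count neighbours of the same gastruloid too, so an excess within single gastruloids, such as 6A and 6B, enters them. Neighbours from other gastruloids of the same condition were not counted apart. Since each gastruloid is a plate, the part of the plate in this was not tested.

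The cell cycle scores placed NMP cells, like most other cells, in S phase or G2/M. The S-phase and G2M scores sum up genes expressed in these phases. A cell is called S or G2M by the larger score and G1 when both are below 0, a rule that held for all 4637 cells. Of the NMP cells, 343 were called S (64.8%), 181 G2M (34.2%) and 5 G1 (0.945%, 95% Wilson interval 0.404% to 2.19%). Among the other 4108 cells, 297 were called G1 (7.23%). Over the 14 gastruloids with at least 5 NMP cells, S calls averaged 65.5% in NMP cells and 56.2% in other cells. G2M calls averaged 33.1% and 36.7%. Pooled over gastruloids, PGC-like cells had 63.5% S and 34.6% G2M calls, and Presomitic Mesoderm cells 61.1% and 35.3%. The authors regressed out the phase before clustering, but the scores come from the same genes as the clusters, so the differences from other types are given over gastruloids with no test.

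Within gastruloids, the S-phase score of NMP cells was above that of the other cells in 13 of the 14 gastruloids with at least 5 NMP cells, the exception being 1A. It averaged 0.0452 for NMP cells and 0.0354 for other cells over these gastruloids. The G1 share was lower in NMP cells in 14 of 14 gastruloids, with means of 1.41% and 7.15%. The mean G1 share of NMP cells was also below that of each type at the border, but the gastruloids leaned that way against Endoderm only. It was lower than that of Endoderm in 6 and higher in 1 of 11 gastruloids, with means of 1.58% and 11.1%. It was lower than that of Presomitic Mesoderm in 4 and higher in 5 of 14, with means of 1.41% and 2.65%. Against Spinal Cord it was lower in 2 and higher in 2 of 6, with means of 1.12% and 3.44%. The remaining gastruloids were equal in each case. Only 5 NMP cells were called G1, so these counts of gastruloids cannot show that a gap is absent. Against PGC-like cells the G1 share of NMP cells was lower in 4 and higher in 4 of 14, and against Early Somites lower in 14 of 14. The G2M score had no common direction (higher in 5, lower in 9).

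The types differed in which score set them apart from NMP cells. Against Presomitic Mesoderm, the S-phase score of NMP cells was higher in 13 of 14 gastruloids (by 0.0120 ± 0.0084, SD) and the G2M score in 12 of 14 (by 0.0048 ± 0.0053, SD). Against Somites, the S-phase score was higher in 14 of 14 and the G2M score lower in 14 of 14, by a mean of 0.0195 and -0.0350. Against Early Somites, the S-phase score was higher in 7 and lower in 7, while the G2M score was higher in 14 of 14, by 0.0219. The only type with both scores above those of NMP cells in most gastruloids was PGC-like: NMP cells were lower in the S-phase score in 13 of 14 and in the G2M score in 14 of 14.

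Against the Differentiation Front, NMP cells had a higher S-phase score in 11 of 14 gastruloids and a higher G2M score in 13 of 14. Spinal Cord could be compared in 6 gastruloids, and neither score had a common direction there (S-phase score higher in NMP cells in 2 of 6, G2M score in 3 of 6). Endothelium and Allantois, the extraembryonic mesoderm of the later umbilical cord, were richest in G1 calls after the 9 Neural Crest cells, all called G1. Their G1 shares were 45.2% of 62 cells and 64.6% of 96 cells, and NMP cells exceeded their S-phase score in 7 of 7 and 8 of 8 gastruloids.

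**Figure D5:**
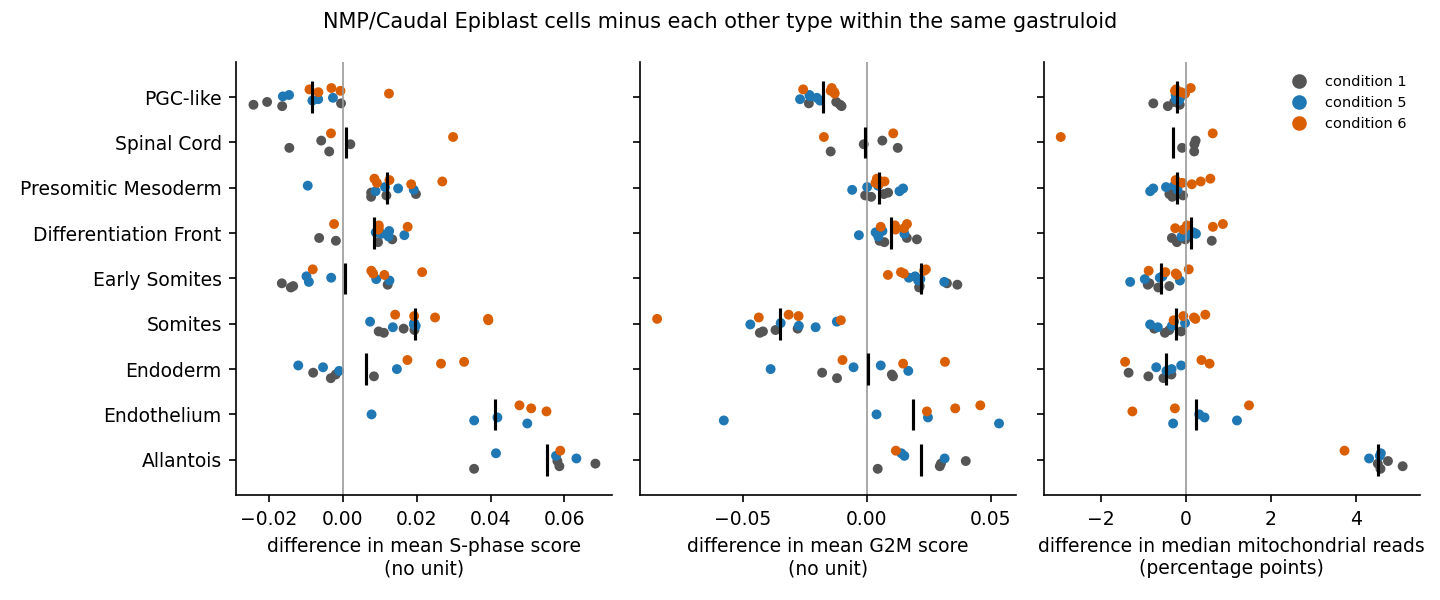
Differences between NMP cells and each other type within a gastruloid, in mean S-phase score (left), mean G2M score (middle) and median mitochondrial reads in percentage points (right). Each point is a gastruloid with at least 5 cells of both types, coloured by condition, and black bars are means. NMP cells lie above Somites in the S-phase score and below them in the G2M score in 14 of 14 gastruloids.

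The G2M score moved with depth. NMP cells called G2M had a median of 12703 counts and those called S 9360, and the ratio within gastruloids was above 1 in 13 of 14 with a median of 1.39. This was not particular to NMP cells. The ratio was above 1 in 15 of 15 gastruloids for all other types together (median 1.24). For Presomitic Mesoderm it was above 1 in 14 of 14 (median 1.41), and for Spinal Cord in 4 of 8 (median 1.12). Across the 529 cells, Spearman's rho with the counts was 0.337 for the G2M score and -0.0883 for the S-phase score, and the scores themselves had rho = -0.532. These cells share 15 plates, and rho is given as a description. In 3 classes of counts with bounds at 8362 and 12488 counts, the S-phase score of NMP cells was 0.0478, 0.0471 and 0.0408, and that of other cells 0.0319, 0.0406 and 0.0337. It was higher in NMP cells in 13 of 15, 9 of 14 and 10 of 14 gastruloids. The G2M score of NMP cells was 0.0092, 0.0180 and 0.0391 in these classes, against 0.0103, 0.0246 and 0.0466 in other cells, and was higher in NMP cells in 6 of 15, 5 of 14 and 2 of 14 gastruloids. The G1 share was 1.14%, 1.70% and 0% in NMP cells and 12.7%, 3.90% and 1.30% in other cells, so the gap was widest among cells of few counts.

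NMP cells on opposite sides of the group differed in the G2M score. In the 10 gastruloids with at least 5 NMP cells on each side, the mean G2M score was 0.0393 on the Spinal Cord side and 0.0038 on the Presomitic Mesoderm side, and the neural side was higher in 9 of 10. The value was 0.0422 against -0.0047 in 1A, 0.0443 against 0.0017 in 5A and 0.0613 against 0.0116 in 6B, while in 1C it was 0.0231 against 0.0262, the exception. G2M calls made up 51.1% of the cells on the neural side and 19.1% on the mesodermal side. The S-phase score was 0.0403 and 0.0493, higher on the neural side in 3 of 10.

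Depth differed between these sides too. The median counts were 11421 on the neural and 8427 on the mesodermal side, higher on the neural side in 9 of 10 gastruloids. After a straight line of the G2M score on log2 counts was removed, the means were 0.0371 and 0.0084 and the neural side stayed higher in 9 of 10. Among cells with at least 1000 counts they were 0.0402 and 0.0037, higher in 8 of 9. The side facing the Endoderm lay between, with a G2M score above that of the mesodermal side in 12 of 12 gastruloids and below that of the neural side in 8 of 11. With the line removed, or with at least 1000 counts, it was above the mesodermal side in 10 of 12 and 10 of 11. Position on the UMAP and the score both derive from the expression values, so these differences are not tested.

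Between conditions, no pair passed for the S-phase score, the G2M score or the G1 share of NMP cells over all gastruloids, and some comparisons of the scores passed under other settings. The mean S-phase score of the NMP cells was 0.0392, 0.0404, 0.0484, 0.0486 and 0.0402 in 1A to 1E, 0.0436, 0.0485, 0.0486, 0.0405 and 0.0342 in 5A to 5E, and 0.0551, 0.0495, 0.0539, 0.0461 and 0.0452 in 6A to 6E. The groups overlapped, with 6A and 6C above all others and 5E lowest. The means were 0.0433 ± 0.0047, 0.0431 ± 0.0060 and 0.04997 ± 0.0045 (SD, n = 5 each), and the exact rank-sum p was 0.0952 for condition 1 against 6 and for 5 against 6, before correction. With each class of counts given the same weight, condition 1 lay below condition 6, with a signed difference of -0.0099 (exact p = 0.0159, corrected 0.0476). This setting leaves out 1D, whose 2 cells both fall in the lowest class, so it compares 4 with 5 gastruloids. Mean G2M scores were 0.0209 ± 0.0095, 0.0175 ± 0.0050 and 0.0198 ± 0.0057 (SD, n = 5 each; exact p from 0.151 to 0.548). Without 1D, the mean of condition 1 was 0.0249 ± 0.0033 (SD, n = 4), above condition 5 by 0.0074 (exact p = 0.0159, corrected 0.0476), and above condition 6 by 0.0051 (exact p = 0.190). With the line on log2 counts removed, the G2M score of condition 1 was above that of condition 5 by 0.0091 (exact p = 0.00794, corrected 0.0238) and above that of condition 6 by 0.0098 (exact p = 0.0159, corrected 0.0476). That line was carried down to the 2 shallow cells of 1D: with at least 1000 counts per cell, which leaves 1D out, the differences were 0.0064 and 0.0075 and neither passed (exact p = 0.0635 and 0.0317, corrected 0.190 and 0.0952). The 5 G1 calls fell in 1A, 5A, 5C, 5E and 6E, 1 cell each.

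NMP cells were among the cells of higher depth. Their median of 10122 counts and 4611 genes compares with 8967 counts and 4272 genes for other cells, and within gastruloids their median counts were higher than those of the other cells in 13 of 14, 5D being the exception. Against Early Somites and the Differentiation Front they were higher in 14 of 14, and against PGC-like cells lower in 10 of 14. They were higher than those of Presomitic Mesoderm in 11 of 14, Somites in 10 of 14 and Allantois in 8 of 8. For Spinal Cord (higher in 4 of 6), Endothelium (4 of 7) and Endoderm (5 of 11) the direction was mixed. Cells with under 1000 counts were 18 of the NMP cells (3.403%) and 125 of the others (3.04%). Of these 18, 12 were on the Presomitic Mesoderm side, 5 on the Endoderm side and 1 on the Spinal Cord side. The depth of NMP cells, as the median counts per gastruloid, averaged 8074 ± 4248, 10013 ± 1607 and 11917 ± 2017 for conditions 1, 5 and 6 (SD, n = 5 each), and no pair passed (lowest exact p = 0.151). Without 1D, condition 1 averaged 9908 ± 1282 (SD, n = 4), which differed from condition 5 by -105 counts (exact p = 0.905) and from condition 6 by -2009 counts (exact p = 0.286).

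Relative to the other cells of the same gastruloid, the depth of NMP cells was lower in condition 1 than in condition 6. On the log2 scale, the difference averaged -0.53 ± 1.57, 0.094 ± 0.20 and 0.31 ± 0.078 for conditions 1, 5 and 6 (SD, n = 5 each). The gap of -0.83 between conditions 1 and 6 passed (exact p = 0.0159, corrected 0.0476), but 1D, at -3.33, set its size: without 1D it was -0.13 (exact p = 0.0317, corrected 0.0952), which did not pass. This depth gap stands beside the S-phase and G2M values given above, and its part in them was not tested beyond the classes of counts and the removed line.

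Mitochondrial reads took a slightly smaller part of the reads in NMP cells than in the other cells of the same gastruloid. This measure was tested, since mitochondrial reads were left out before clustering, although the mitochondrial percent was also regressed out. The median percent in NMP cells was 4.91, 5.36, 4.79, 4.16 and 5.13 in 1A to 1E, against 5.28, 5.46, 5.18, 5.50 and 5.47 in other cells. It was 4.72, 4.85, 4.58, 5.19 and 4.63 in 5A to 5E, against 5.27, 5.02, 5.17, 5.43 and 4.91. In 6A to 6E it was 4.33, 4.43, 4.98, 4.13 and 5.40, against 4.48, 4.57, 4.96, 4.35 and 4.94. NMP cells were lower in 13 of 15 gastruloids, all but 6C and 6E. Depth went with this measure: across NMP cells, Spearman's rho between counts and mitochondrial percent was -0.136. In the low, middle and high class of counts, the pooled medians were 4.92, 4.96 and 4.51 in NMP cells. Those of other cells were 5.28, 5.17 and 4.66, so the gap was narrowest in the high class. The part of depth in the difference was not tested.

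The mean difference was -0.294 ± 0.382 percentage points (SD, n = 15, exact sign-flip p = 0.0046). Without 1D it was -0.219 (n = 14, exact sign-flip p = 0.0093). It depended on how the other cells were weighed: with each other type given the same weight it was 0.0224 (n = 15, exact sign-flip p = 0.874), since Allantois cells, with a median of 0.343%, then counted as much as the abundant types. With equal weights and Allantois left out, it was -0.370 (n = 15, exact sign-flip p = 0.0106). By type, NMP cells were lower than Early Somites and PGC-like cells in 13 of 14 gastruloids each and lower than Presomitic Mesoderm and Somites in 11 of 14 each, and the Differentiation Front was split 7 to 7. They were lower than Endoderm in 9 of 11, but higher than Spinal Cord in 4 of 6, Endothelium in 4 of 7 and Allantois in 8 of 8.

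The mitochondrial difference lay further below 0 in condition 5 than in condition 6. It averaged -0.512 ± 0.478, -0.366 ± 0.195 and -0.0047 ± 0.273 percentage points for conditions 1, 5 and 6 (SD, n = 5 each). The mean of condition 1 rested on 1D, at -1.34: without it the mean was -0.305 ± 0.134 (SD, n = 4), and condition 1 minus 5 turned from -0.146 to 0.0613 (exact p = 0.905). Condition 5 lay below condition 6, with a signed difference of -0.361 points (exact rank-sum p = 0.0159, corrected 0.0476). This call was lost when any of 8 gastruloids (5A, 5C, 5D, 5E, 6A, 6B, 6C and 6E) was left out, with the difference then between -0.413 and -0.245. It was also lost with at least 1000 counts per cell, with at least 20 NMP cells and as a mean over cells. With each other type given the same weight, the difference between conditions 5 and 6 changed sign. Its Benjamini-Hochberg value over all planned tests between conditions was 0.111. The mitochondrial percent of the NMP cells themselves was not told apart between conditions, at 4.87 ± 0.452, 4.79 ± 0.248 and 4.65 ± 0.522 (SD, n = 5 each; lowest exact p = 0.548).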

How the data were processed

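Single cells of 15 gastruloids were profiled by CEL-seq2, 1 plate per gastruloid. The authors trimmed reads with cutadapt 4.1, mapped them with STAR 2.5.3a to a strain-masked GRCm38, deduplicated them, set minimums of 500 reads and 100 genes and a maximum of 20% mitochondrial reads, dropped Malat1 and the mitochondrial and ribosomal reads, and normalised to 500 transcripts per cell. They regressed out counts, mitochondrial percent and cell cycle phase and clustered with 40 principal components, 10 neighbours and a Leiden resolution of 0.5. The deposited total per cell is a raw count, although 24 listed cells have under 500. The deposited mitochondrial value is a fraction, turned into percent here. The S-phase and G2M score of each cell are deposited without unit, and how they were computed is not given in the sources used here. The UMAP coordinates are a deposited score without unit. Tables of mESCs and of sequencing (3 in all) were not used. With no gene values, no gene was named as a result, doublets were not called and cells were not thinned.

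The gastruloid was the replicate. Medians of counts, genes and mitochondrial percent and means of scores were taken per gastruloid. Conditions were compared by exact two-sided Wilcoxon rank-sum tests, p times 3, called under 0.05. NMP cells and other cells were compared by an exact sign-flip test for mitochondrial percent only. Correlations used 100000 permutations within conditions (seed 1). The depth was 440 to 39676 counts per NMP cell. Alternatives were minimums of 1000 counts per cell or 20 NMP cells, a maximum of 10% mitochondrial reads, other neighbour numbers, means or medians, depth classes, equal weights of types, a block for the replicate number and the removal of each gastruloid in turn. The functions were tested on simulated data. Python 3.11.15, numpy 2.4.6, pandas 2.3.3, scipy 1.17.1 and matplotlib 3.10.9 were used. Members, measures and comparisons were chosen with earlier results of these data known.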

Additional observations from a re-analysis of the deposited data

Results flagged for a closer look

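In 44 groups of 4 or 5 values, 1 per gastruloid of a condition, the highest and the lowest value were checked for a gap to the next value, as a part of the whole range, above Dixon's 95% critical value. A gastruloid passed it in 7 of the 44, where chance flags a share of about 0.05, but the measures share cells and are not independent. Gastruloid 1D stood apart from the rest of condition 1 in 4 measures. Its NMP cells were 1.11% of the NMP and Spinal Cord cells, their median was 633 genes, their counts differed from those of the other cells by -3.33 on the log2 scale, and their mitochondrial percent differed from the others' by -1.34 percentage points. All but the 1.11%, which is set by 178 Spinal Cord cells beside the 2 NMP cells, are values of the 2 NMP cells alone. Gastruloid 6B stood apart in condition 6 with an NMP share of 17.6%. In the G1 share of NMP cells, 1A at 2.70% and 6E at 4.0% were singled out, each from 1 cell in a condition whose other gastruloids had none, a pattern in which any single cell is singled out.

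A pair of within-gastruloid differences between NMP cells and other cells changed with the condition in a test of the difference itself. The difference in log2 counts was lower in condition 1 than in condition 6 by an amount of -0.83, and it did not pass when 1A, 1C, 1D, 1E, 6A, 6B, 6C or 6E was left out. The difference in mitochondrial percent was lower in condition 5 than in condition 6, by -0.361 percentage points, and it did not pass when 5A, 5C, 5D, 5E, 6A, 6B, 6C or 6E was left out. The gap between these conditions changed sign when each other type had the same weight.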

How the results depend on the processing

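Over 342 alternatives to the tests, 295 kept the direction and the side of the threshold, 13 lost a call, 10 gained it and 24 turned the sign. The cause was not tested. The 4 differences in the proportion of NMP cells kept direction and call under every filter and without any gastruloid (-48.6 to -31.6 and -41.9 to -24.9 percentage points beside Spinal Cord for condition 1 minus 5 and 1 minus 6, and 37.9 to 47.0 and 36.3 to 47.0 beside Presomitic Mesoderm). The replicate numbers did not pair the gastruloids: same-numbered gastruloids had correlations of deviations from -0.505 to 0.340, with 7 of 15 above 0.1. With the replicate number as a block, 6 calls were lost, since 5 pairs allow no exact p under 0.0625: the values were -44.0, -37.3, 43.0 and 41.4 for these proportions, -0.83 for log2 counts and -0.361 for mitochondrial percent. 

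For NMP minus other cells, log2 counts of condition 1 minus 6 did not pass with at least 1000 counts (-0.13), at least 20 NMP cells (-0.13) or equal weights without Allantois (-1.0), and ranged from -1.03 to -0.13 without single gastruloids. Condition 5 minus 6 passed with at least 20 NMP cells (-0.27) and as a mean over cells (-0.30; single gastruloids left out, -0.27 to -0.14, passing without 5E). Condition 1 minus 5 turned to 0.046 and 0.14 under these minimums (-0.82 to 0.080). Mitochondrial percent of condition 5 minus 6 did not pass under them (-0.311 and -0.382), with equal weights without Allantois (-0.192) or as a mean (-0.274), turned to 0.0538 with equal weights, and ranged from -0.413 to -0.245. Condition 1 minus 5 turned to 0.0185 and 0.0826 (-0.248 to 0.0613), and 1 minus 6 ranged from -0.609 to -0.300, passing without 1B (-0.609). The G2M score of 1 minus 5 turned to 0.0030 and 0.0049 (-0.0029 to 0.0049). Over 15 gastruloids, the mitochondrial difference turned to 0.0224 with equal weights and was otherwise -0.348 to -0.219.

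The S-phase score of NMP cells of condition 1 minus 5 turned to -0.0014 with at least 1000 counts, -0.0033 with at least 20 NMP cells, -0.0032 in classes of counts, -0.0030 as a median, -0.0018 in S-phase cells and -0.0015 without its line on counts above 1000 counts (-0.0019 to 0.0017). Condition 1 minus 6 passed in classes of counts (-0.0099), a setting that leaves out 1D. The G2M score without its line passed for 1 minus 5 (0.0091) and 1 minus 6 (0.0098), and as deposited ranged from 0.0011 to 0.0074, passing without 1D (0.0074), and from -0.0011 to 0.0051. Condition 5 minus 6 turned to 0.0022 in classes, and to 0.00075 and 0.0012 without the line. The G1 share of 1 minus 6 turned to 0.694 and 0.0278 percentage points with at least 1000 counts and in classes (-0.800 to 0.541). With at least 20 NMP cells, counts and genes of 1 minus 5 turned to 85.2 and 57.0. Genes ranged from -1047 to 33.1 for 1 minus 5 and from -1546 (without 1A, passing) to -466 for 1 minus 6, and mitochondrial percent of 1 minus 5 from -0.0478 to 0.251. The NMP share of condition 5 minus 6 ranged from -1.53 to 1.94, and its proportion beside Presomitic Mesoderm from -4.45 to 4.07. The neural share of neighbours, condition 1 minus 6, passed with 30 (69.3) and 50 neighbours (69.96) and with neighbours of other conditions (74.8). The nearest-cell share passed with at least 1000 counts (32.9) and 20 NMP cells (32.5; 15.4 to 32.5). The correlation with Spinal Cord turned to 0.0056 without subtracting condition means, 0.578 without 2 gastruloids and 0.319 in conditions 5 and 6 (-0.653 to 0.739), and that with Presomitic Mesoderm ranged from 0.281 to 0.658. Few cells limit all of these: 13 to 76 NMP cells per gastruloid outside 1D, and 4 against 4 gastruloids allow no corrected p under 0.0857.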
